A study of Mus musculus with 6 samples.

Results

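The 10 listed genes of nitric oxide and arginine metabolism were followed in the deposited expression table: Nos2, Gch1, Ass1, Asl, Slc7a2, Arg1, Arg2, Odc1, Srm and Sat1. They were taken by symbol, and 9 of the 10 had a row among the 17217 rows of the table. Slc7a2, the gene of an inducible transporter of cationic amino acids, had no row and counts as not detected. Arg1 had a row but a mean under 1 TPM, the minimum for testing, so 8 of the 10 were tested. TPM is a transcript abundance scaled by gene length and by the total of its library, so TPM can be compared between genes.

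The study measured RNA of mouse bone marrow-derived macrophages by bulk sequencing, to ask how loss of CD74 changes their transcriptome. The Knockout group (genotype label KO, Cd74-/-) had 3 libraries, all labelled batch 2. The Control group (genotype label Con, Cd74+/+) had 3 libraries, all labelled batch 1. Femoral marrow was cultured with M-CSF, the macrophage growth factor, at 30 ng/mL, and cells of both groups received lipopolysaccharide (LPS, a bacterial inflammatory stimulus) at 100 ng/mL for 24 h. The mice are given as 8 weeks old in a protocol that is shared by all 6 libraries and names only wild-type animals, and strain, sex and the number of animals are not given in the labels. Since each batch holds a single genotype, their effects cannot be told apart, and no unstimulated cells are included, so every level is one after LPS. Whether the replicates are separate animals or cultures is not given, so p-values measure only the spread between these libraries, which may be technical.

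Depth was 51726646 to 59236599 recovered reads in the Knockout libraries and 36445462 to 52517056 in the Control libraries. Cd74 stood at 64.4 ± 1.11 TPM in Knockout and 607 ± 22.2 TPM in Control libraries (SD, n = 3 each), in the direction of the labels. Its row, however, did not come out as whole reads. The log2 ratio of its group means was -3.24, against a median of -1.24 for the 10 rows beside it. For Gch1 these values were -0.57 and -0.57. The cause was not tested, and the size of the Cd74 difference is uncertain. Such rows numbered 28, with 0 of the genes listed here among them. In the tests described below, leaving them out took the genes called lower in Knockout cells from 1313 to 1285. Those called higher went from 2406 to 2405, so the effect was almost all on the lower side. Macrophage markers summed to 13942 to 15192 TPM in Knockout and to 10599 to 11145 TPM in Control libraries, although 4 of the 12 markers, C1qa, C1qb, C1qc and Mertk, had no row. Osteoclast markers, another fate of marrow cells grown with M-CSF, summed to 428 to 442 TPM in Knockout and 243 to 258 TPM in Control libraries, with 6 of 7 listed, and T cell and mast cell markers had no row. Of 9 neutrophil markers 3 had a row, summing to 23.8 to 29.3 TPM in Knockout and 17.6 to 18.1 TPM in Control libraries. S100a8 rose to 19.0 ± 3.34 TPM in Knockout, against 5.01 ± 0.762 TPM in Control libraries, Csf3r fell to 7.39 ± 0.605 TPM in Knockout, against 11.9 ± 1.43 TPM in Control libraries (SD, n = 3 each), and the defining genes S100a9, Ly6g, Mpo and Elane had no row. The part of these markers in the members' values was not tested. Knockout replicate 3 and Control replicate 1 lay farthest from the other libraries of their groups. Values of both are singled out below where they decide a result.

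Arginine is the substrate shared by opposing enzymes in macrophages. Inducible nitric oxide synthase, the product of Nos2, turns it into nitric oxide and citrulline with the cofactor tetrahydrobiopterin, and argininosuccinate synthase (Ass1) and argininosuccinate lyase (Asl) rebuild arginine from the citrulline. Arginase 1 in the cytosol and arginase 2 in mitochondria instead split arginine into urea and ornithine, which ornithine decarboxylase (Odc1) turns into putrescine, the first polyamine. Spermidine synthase (Srm) extends the chain, and spermidine/spermine acetyltransferase (Sat1) marks polyamines for breakdown and export. LPS is a classical inducer of Nos2 in mouse macrophages, whereas interleukin-4 is the textbook inducer of Arg1.

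In Knockout cells the cofactor and citrulline-recycling genes Gch1 and Ass1 fell and the polyamine breakdown gene Sat1 fell, while the mitochondrial arginase gene Arg2 and the spermidine synthase gene Srm rose. Nos2 itself was not called, and its groups overlapped. With limma and adjustment over all 13034 tested rows, the calls were 2 rises and 3 falls, and 3 members passed neither way. Over all tested rows 18.5% were called higher and 10.1% lower in Knockout cells. The ranges of Knockout and Control libraries were apart for 6 of the 8 tested members, 2 with Knockout above and 4 with Knockout below, against 30.2% of all tested rows above and 19.8% below. In bulk RNA, fewer cells of a type and less RNA per cell cannot be told apart.

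**Figure D1:**
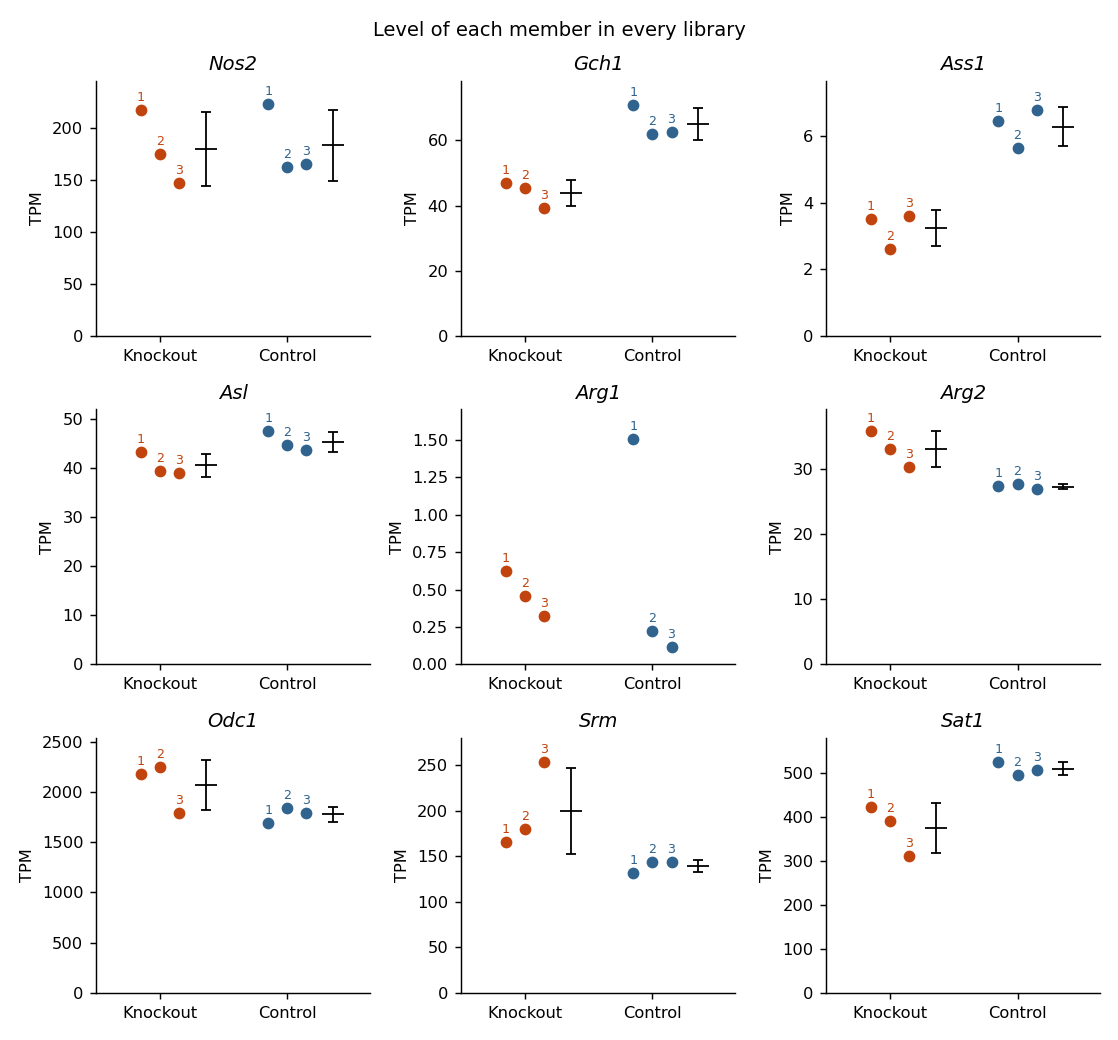
TPM of the 9 members with a row, in panels with their own linear axes from 0, for Knockout (left) and Control (right) libraries; numbers beside points are replicates, and black marks give mean and SD (n = 3 each; omitted for Arg1). Gch1, Ass1, Asl and Sat1 are lower in every Knockout library than in every Control library, Arg2 and Srm are higher, and Nos2, Arg1 and Odc1 overlap.

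Nos2 was abundant in both genotypes. It stood at 218, 176 and 147 TPM in Knockout replicates 1 to 3, and at 224, 163 and 165 TPM in Control replicates 1 to 3. Replicate 1 was the highest library of each group, and the ranges nearly coincided. Limma put the difference at -0.03 on the log2 scale (SE 0.17, adjusted p = 0.903), with a 95% interval from -0.43 to 0.36. Nos2 varied more within groups than 87.9% of tested rows. Without Knockout replicate 3 its log2 fold change was 0.11 and without Control replicate 1 it was 0.12, so even the sign of this value rests on single libraries.

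Gch1 encodes GTP cyclohydrolase, which commits GTP to tetrahydrobiopterin. It fell to 47.0, 45.5 and 39.3 TPM in Knockout replicates 1 to 3, against 70.8, 62.0 and 62.4 TPM in Control replicates 1 to 3. The highest Knockout value was below the lowest Control value. The difference was -0.56 on the log2 scale (SE 0.08, limma adjusted p = 0.00565), and Gch1 was called lower under all 14 alternative settings.

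Ass1 was the member with the largest fold change among those tested, at a low level. It fell to 3.51, 2.61 and 3.60 TPM in Knockout replicates 1 to 3, against 6.44, 5.63 and 6.78 TPM in Control replicates 1 to 3, or 99 to 152 reads against 176 to 256 reads. The Knockout mean was 0.516 of the Control mean, and the groups were well apart. On the log2(TPM + 1) scale, which understates changes of low genes, the difference was -0.78 (SE 0.13, limma adjusted p = 0.00766). It was called under all 14 alternatives, and limma-voom on recovered reads, which does not add 1 TPM to each value, gave -0.98. Ass1 and its partner did not keep one ratio: Asl exceeded Ass1 12.7 ± 2.15-fold in Knockout and 7.25 ± 0.762-fold in Control libraries (SD, n = 3 each), without overlap.

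Asl, which splits argininosuccinate into arginine and fumarate, stood at 43.2, 39.3 and 38.9 TPM in Knockout and at 47.6, 44.7 and 43.6 TPM in Control replicates 1 to 3. The groups did not overlap, but the gap between Knockout replicate 1 and Control replicate 3 was small. Asl was not called (log2 fold change -0.16, SE 0.06, limma adjusted p = 0.0931), and it was called lower with median-of-ratios scaling (adjusted p = 0.0469) and by limma-voom (adjusted p = 0.0495).

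**Figure D2:**
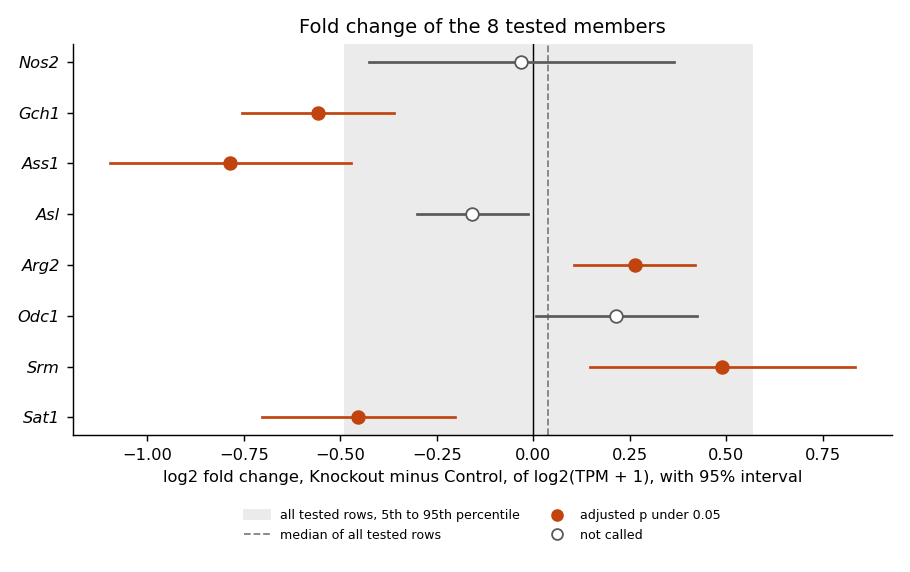
Log2 fold change (Knockout minus Control, of log2(TPM + 1)) of the 8 tested members, with 95% intervals from limma; filled points passed an adjusted p of 0.05, the grey band spans the 5th to 95th percentile of all tested rows (-0.49 to 0.57) and the dashed line is their median, 0.04. Gch1 and Ass1 lie below the band, and the other 6 lie within it.

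Promoter sequence could be read for Gch1, Ass1, Odc1 and Sat1, 4 of the 10 members, in RefSeq windows of build GRCm38.p6, an earlier build than the GRCm39 named in the submitters' processing notes. The windows of Gch1 and Ass1 are shown because these members fell under every setting. Each runs 5′ to 3′ from 250 bases before to 50 bases after the gene's start. Capitals mark matches to 8 motifs searched on both strands: the E-box CACGTG, the CCAAT box, the TATA box TATAAA, the joint C/EBP and ATF element TGATGNAA, the variant cAMP response element TGACGNAA, the C/EBP element TTNCGNAA, the gamma-activated site TTCNNNGAA and the NF-kB consensus. Negative positions count bases upstream, with -1 next to the start. The window of Gch1 is chr14:47189364-47189663 on the minus strand and that of Ass1 is chr2:31470020-31470319 on the plus strand.
Gch1: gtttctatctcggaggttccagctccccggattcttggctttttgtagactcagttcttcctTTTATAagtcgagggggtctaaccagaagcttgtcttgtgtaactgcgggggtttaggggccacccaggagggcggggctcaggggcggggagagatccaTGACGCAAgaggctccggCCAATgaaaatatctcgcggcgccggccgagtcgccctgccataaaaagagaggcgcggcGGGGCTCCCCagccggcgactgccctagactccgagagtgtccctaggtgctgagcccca
Ass1: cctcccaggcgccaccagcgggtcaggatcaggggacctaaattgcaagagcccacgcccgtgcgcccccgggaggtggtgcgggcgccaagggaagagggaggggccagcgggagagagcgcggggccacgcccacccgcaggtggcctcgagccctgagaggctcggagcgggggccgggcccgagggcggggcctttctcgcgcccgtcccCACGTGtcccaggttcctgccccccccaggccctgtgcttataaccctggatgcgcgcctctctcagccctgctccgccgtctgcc

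The Gch1 window held TGACGCAA at -88 to -81 and CCAAT at -70 to -66, a pair described in the rat Gch1 promoter as cAMP-responsive. It also held an NF-kB match of sequence GGGGCTCCCC at -10 to -1 and TATAAA on the opposite strand at -188 to -183. Over all 32851 windows, 1.59% held TGACGNAA, 37.4% CCAAT, 4.51% an NF-kB match and 13.6% TATAAA. The Ass1 window held 1 match, an E-box at -36 to -31, a motif found in 7.15% of windows. The Odc1 and Sat1 windows held 0 matches to the 8 motifs, which says only that these letters are not in those windows. The motifs were chosen with the sequences in view, and a match is a description of letters, not a binding site.

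Arg1, the marker enzyme of alternatively activated macrophages, was close to the limit of detection. It stood at 0.626, 0.458 and 0.320 TPM in Knockout replicates 1 to 3 and at 1.51, 0.224 and 0.115 TPM in Control replicates 1 to 3, which is 25, 16 and 12 reads against 38, 8 and 4 reads. Control replicate 1 was the highest library of all and the other 2 Control libraries the lowest, so the groups overlapped. With no filter on low values, Arg1 had a log2 fold change of -0.04 (SE 0.30, limma adjusted p = 0.937).

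Arginase 1 is also a major enzyme of hepatocytes, and liver transcripts were present in the same Control library. Of 22 hepatocyte genes, a list chosen after the values were seen, 16 had a row, and 16 of the 16 were highest in Control replicate 1. Their summed level was 6.09 to 10.6 TPM in Knockout libraries, and 67.6, 8.52 and 12.1 TPM in Control replicates 1 to 3. Alb, the albumin gene, stood at 0.0953, 0.871 and 0.203 TPM in Knockout replicates and at 22.4, 0 and 0.819 TPM in Control replicates. The fibrinogen gene Fgg was listed at 0 in all Knockout libraries and stood at 3.46, 0 and 0.0611 TPM in Control replicates. The part of these transcripts in the Arg1 values was not tested. Ass1 and Asl are enzymes of the liver urea cycle as well, and the part of these transcripts in their values was not tested either.

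**Figure D3:**
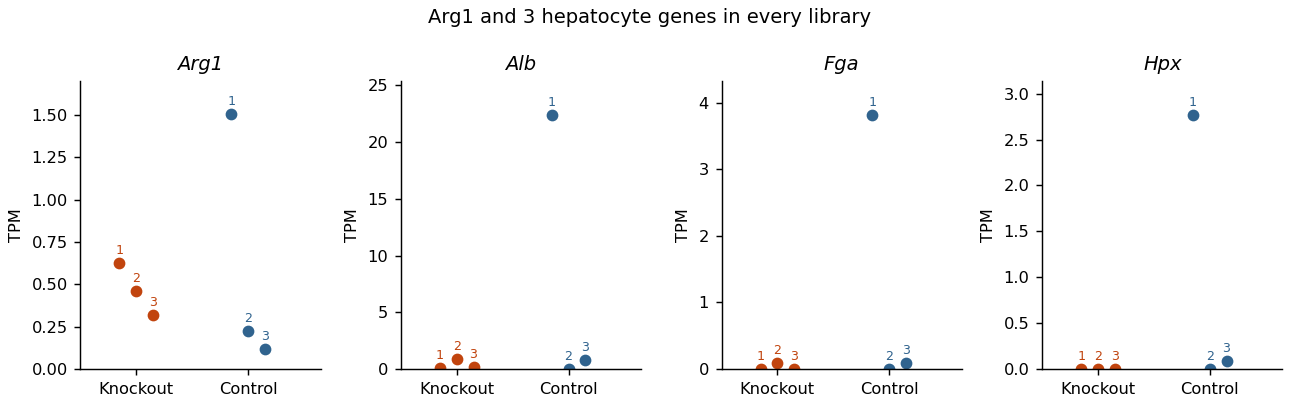
TPM of Arg1 and of the hepatocyte genes Alb, Fga and Hpx on linear axes from 0, for Knockout (left) and Control (right) libraries; numbers beside points are replicates. Control replicate 1 is the highest library in all 4 panels.

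Arg2 was far more abundant than Arg1 in every library. It rose to 35.7, 32.9 and 30.2 TPM in Knockout replicates 1 to 3, against 27.3, 27.6 and 26.9 TPM in Control replicates 1 to 3. The Control libraries lay close together, and every Knockout library lay above them. This was a log2 difference of 0.26 (SE 0.07, limma adjusted p = 0.0266). The call ended under 7 of 14 alternatives, namely upper-quartile scaling, limma-voom and 5 of the 6 fits with 1 library left out, with an adjusted p of at most 0.0839, and its sign did not turn in any of the 14.

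Because both enzymes draw on arginine, Nos2 was set against each arginase within a library. Nos2 exceeded Arg2 5.44 ± 0.628-fold in Knockout and 6.75 ± 1.26-fold in Control libraries (SD, n = 3 each), with overlapping groups. The log2 ratio of Nos2 to Arg2 differed by -0.29 (exact permutation test, two-sided, p = 0.3, smallest possible p = 0.1). Without Control replicate 1 the difference was -0.15, and without both that library and Knockout replicate 3 it was -0.07. The log2 ratio of Nos2 to Arg1 differed by 0.01 (exact permutation test, two-sided, p = 0.9), and its sign turned under 6 of 13 alternatives.

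Odc1 was by far the most abundant member, above 99.6% of tested rows by its mean level. It stood at 2174, 2251 and 1790 TPM in Knockout replicates 1 to 3 and at 1694, 1840 and 1795 TPM in Control replicates 1 to 3. Knockout replicates 1 and 2 lay above all Control libraries, whereas Knockout replicate 3 lay among them. Odc1 was not called (log2 fold change 0.22, SE 0.09, limma adjusted p = 0.11). Without Knockout replicate 3 it was called higher, at 0.32 with an adjusted p of 0.00617.

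Srm rose to 166, 180 and 253 TPM in Knockout replicates 1 to 3, against 132, 143 and 144 TPM in Control replicates 1 to 3. All Knockout libraries were above all Control libraries, and Knockout replicate 3 was far above the other 2. Limma gave a log2 difference of 0.49 (SE 0.15, adjusted p = 0.0439). Its size rests on that library, since it was 0.31 without it (adjusted p = 0.0131). The call ended under both scalings, with no filter and under 4 of the 6 fits with 1 library left out, with an adjusted p of at most 0.129.

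Sat1 fell to 422, 391 and 311 TPM in Knockout replicates 1 to 3, against 525, 495 and 507 TPM in Control replicates 1 to 3. The groups were apart, and Knockout replicate 3 was the lowest library. Limma gave a log2 difference of -0.45 (SE 0.11, adjusted p = 0.0203). The call ended without any 1 of the 3 Control libraries, with an adjusted p of at most 0.0701, and was kept without Knockout replicate 3, at -0.32 (adjusted p = 0.0065).

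Odc1, at the entry into polyamines, was also set against Sat1, at the exit, within each library. Their TPM ratio was 5.15, 5.76 and 5.76 in Knockout replicates 1 to 3 and 3.23, 3.72 and 3.54 in Control replicates 1 to 3, or 5.56 ± 0.349 and 3.49 ± 0.248 (SD, n = 3 each). The ranges did not overlap, and Knockout replicate 3, the outlying library for each gene alone, sat with its group here. This ratio and that of Asl to Ass1 were chosen after the values were seen and are given without a test. Odc1 over Oaz1, the antizyme that inhibits its product, was 7.40 ± 1.13 in Knockout and 7.61 ± 0.213 in Control libraries (SD, n = 3 each), with overlap.

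**Figure D4:**
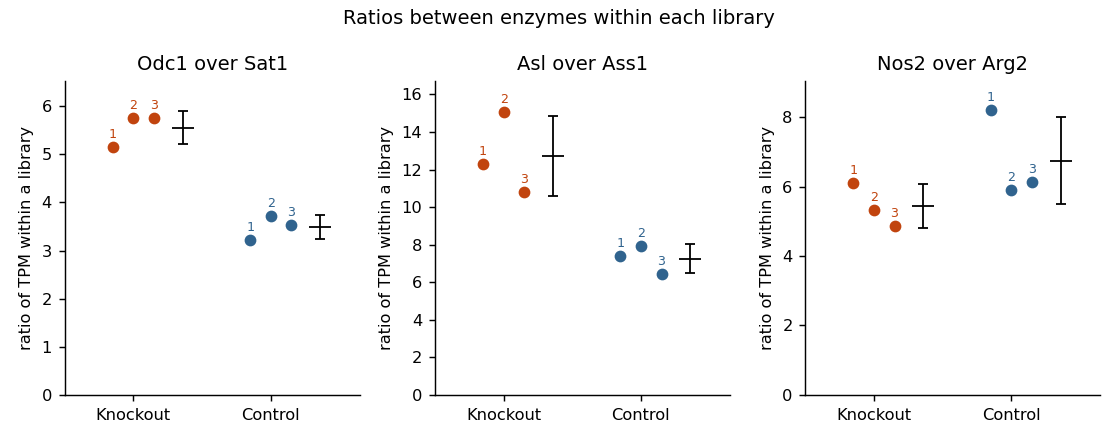
Ratio of TPM between enzyme pairs within each library on linear axes from 0, for Knockout (left) and Control (right); numbers beside points are replicates, black marks give mean and SD (n = 3 each). Odc1 over Sat1 and Asl over Ass1 are higher in every Knockout library than in every Control library, and Nos2 over Arg2 overlaps.

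The order of the members by level hardly differed between libraries. From high to low it was Odc1, Sat1, Nos2, Srm, Gch1, Asl, Arg2, Ass1 and Arg1. Every neighbouring pair kept this order in all 6 libraries, except that Nos2 exceeded Srm in 1 of 3 Knockout and 3 of 3 Control libraries. The ranges of Nos2 and Srm over all 6 libraries overlapped. Those of Gch1 and Asl overlapped within the Knockout libraries, at 39.3 to 47.0 TPM for Gch1 and 38.9 to 43.2 TPM for Asl. Within the Control libraries they were apart, at 62.0 to 70.8 TPM for Gch1 and 43.6 to 47.6 TPM for Asl. Gch1 was above Asl in 6 of 6 libraries.

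Of 20 listed polyamine genes outside the members 17 had a row and 16 were tested. By limma 7 rose, 0 fell and 9 were not called (2 lower, Smox and Oaz2, at an unadjusted p under 0.05). Beside these counts, 18.5% of all tested rows were called higher and 10.1% lower. The list had a median log2 fold change of 0.25 against 0.04 over all tested rows. Atp13a3, a polyamine transporter gene, rose to 90.3 ± 8.16 TPM in Knockout, against 65.3 ± 5.97 TPM in Control libraries. Eif5a, the translation factor that carries the spermidine-derived residue hypusine, was the most abundant of the list and rose to 1506 ± 144 TPM in Knockout, against 1131 ± 54.8 TPM in Control libraries. Mtap, which salvages the methylthioadenosine released by spermidine and spermine synthesis, rose by 0.35 and Sms, spermine synthase, by 0.34 on the log2 scale.

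The other 3 that rose, named to complete the count after their values were seen, were Amd1 (0.30), the S-adenosylmethionine decarboxylase that supplies aminopropyl groups, Atp13a2 (0.28), a lysosomal polyamine exporter, and Oaz1 (0.27). Amd1 and Amd2 are near-identical copies whose reads may have been shared, and Amd1 lost its call under 5 of 14 alternatives. Between 6 and 7 of the list rose under all 14 alternatives. Among the genes not called, the spermine oxidase gene Smox stood at 25.4 ± 6.74 TPM in Knockout and 34.7 ± 4.99 TPM in Control libraries (SD, n = 3 each), with overlap. Of the antizyme genes Oaz2, at 41.9 ± 2.71 TPM in Knockout and 48.1 ± 3.32 TPM in Control libraries, was called lower by limma-voom, with median-of-ratios scaling and with a replicate block.

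Arginine transporters split. Of 9 listed genes 8 had a row and 6 were tested, of which 2 rose, 3 fell and 1 was not called. All tested rows had 18.5% called higher and 10.1% lower, with a median of 0.04 against -0.25 in this list. Slc3a2, the heavy chain shared by several amino acid exchangers, was the most abundant and fell to 302 ± 4.79 TPM in Knockout, against 484 ± 9.15 TPM in Control libraries (SD, n = 3 each; log2 fold change -0.68, SE 0.04, limma adjusted p = 0.000441). Its light chain partner Slc7a7, the exporter of cationic amino acids, fell to 21.6 ± 1.25 TPM in Knockout, against 34.1 ± 1.39 TPM in Control libraries. The lysosomal arginine sensor gene Slc38a9 fell by 0.46 on the log2 scale, a call lost without Control replicate 1 or 3, and Slc25a15, the mitochondrial ornithine carrier gene, rose by 0.34, a call lost under 10 of 14 alternatives. Slc7a1, the main basal arginine importer, stood at 112 ± 7.58 TPM in Knockout and 116 ± 6.95 TPM in Control libraries and was not called, with a 95% interval from -0.21 to 0.11. Slc7a6 (0.28), another Slc3a2 partner, completed the rises.

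Of the 16 genes of nitric oxide synthesis, its cofactor and its handling that are reported here, 12 had a row and 10 were tested. Of these 2 fell, against 10.1% of all tested rows, and the other 8 were not called. The median was -0.04 against 0.04 over all tested rows. Nostrin, a trafficking adaptor first described for the endothelial synthase, fell by 0.39, and Qdpr, dihydropteridine reductase, by 0.18 on the log2 scale. Nostrin lost its call without any 1 Control library, and Qdpr under 8 of 14 alternatives. The later tetrahydrobiopterin enzymes were not called, with Pts at 13.6 ± 1.24 TPM in Knockout and 14.9 ± 0.744 TPM in Control libraries and Spr at 19.97 to 24.6 TPM in Knockout and 19.4 to 20.3 TPM in Control libraries. Por, an electron donor and the most abundant of the list, stood at 367 ± 9.95 TPM in Knockout and 345 ± 11.7 TPM in Control libraries and was not called. Gchfr, the feedback regulator of the Gch1 product, stood at 22.4 ± 2.47 TPM in Knockout and 25.6 ± 2.50 TPM in Control libraries and was not called.

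Of 12 genes of the urea cycle and of ornithine, proline and creatine metabolism, 9 had a row and 8 were tested. Of these 3 rose, 2 fell and 3 were not called, against 18.5% higher and 10.1% lower over all tested rows. The median was 0.24 against 0.04. Of the genes of proline synthesis from glutamate, Aldh18a1 fell to 133 ± 7.60 TPM in Knockout, against 173 ± 5.64 TPM in Control libraries (SD, n = 3 each), and the reductase gene Pycr1 also fell, at 4.59 ± 1.48 TPM in Knockout and 8.13 ± 0.974 TPM in Control libraries. Pycr1 lost its call in 4 of the 6 fits with 1 library left out. Gatm, the first enzyme of creatine synthesis from arginine, rose to 108 ± 7.65 TPM in Knockout, against 88.1 ± 4.45 TPM in Control libraries, a call lost without Knockout replicate 2, Control replicate 1 or Control replicate 2. The proline catabolic gene Aldh4a1 rose by 0.43, a call lost under 13 of 14 alternatives, and Pycr3 (tabulated as Pycrl, and named after its value was seen) rose by 0.26, a call lost under 9 of 14 alternatives. Oat, which links ornithine to glutamate and proline and was the most abundant of the list, stood at 197 ± 18.8 TPM in Knockout and 170 ± 3.56 TPM in Control libraries and was not called (limma adjusted p = 0.0606).

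**Figure D5:**
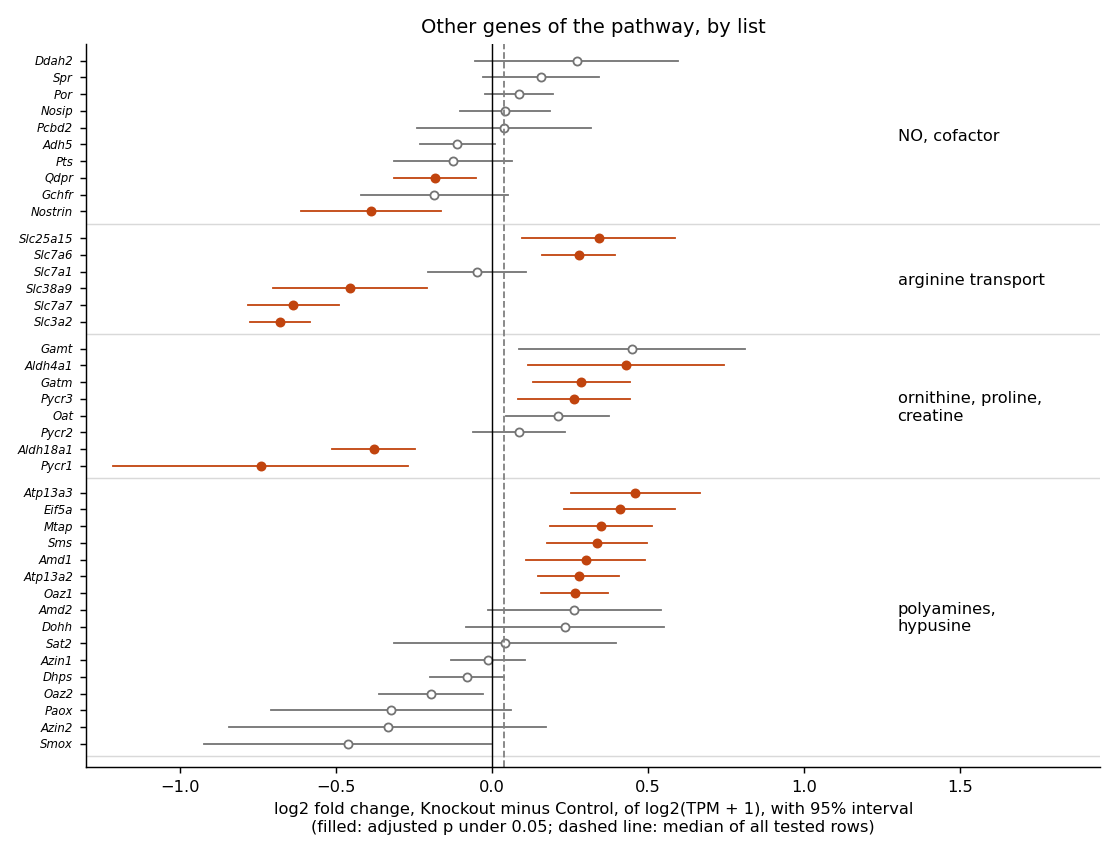
Log2 fold change (Knockout minus Control, of log2(TPM + 1)) with 95% limma intervals for tested genes of 4 lists outside the members; filled points passed an adjusted p of 0.05 and the dashed line is the median of all tested rows. The polyamine list has 7 filled points, all to the right, and the transporter list has its largest changes, Slc3a2 and Slc7a7, to the left.

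Genes known to induce Nos2 went both ways. Of 14 listed genes 13 had a row and were tested, of which 2 rose, 5 fell and 6 were not called. Shares over all tested rows were 18.5% higher and 10.1% lower, and the list's median was -0.09 against 0.04. Jak2, the kinase of the interferon-gamma receptor, fell to 59.1 ± 9.84 TPM in Knockout, against 89.1 ± 0.764 TPM in Control libraries (SD, n = 3 each). Ticam1, the gene of the Toll-like receptor adaptor TRIF, fell to 50.4 ± 4.62 TPM in Knockout, against 73.9 ± 6.80 TPM in Control libraries. Tyk2, another Janus kinase gene, fell to 34.7 ± 4.63 TPM in Knockout, against 45.1 ± 2.83 TPM in Control libraries, a call lost without Knockout replicate 2 and without any 1 Control library (adjusted p of at most 0.102). Myd88, the other adaptor, rose to 80.0 ± 5.83 TPM in Knockout, against 63.4 ± 2.43 TPM in Control libraries. Tlr4, the LPS receptor and the most abundant of the list, stood at 83.4 ± 6.86 TPM in Knockout and 93.5 ± 4.98 TPM in Control libraries and was not called.

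Of 13 genes known to induce Arg1, all with a row and 11 tested, 1 rose, 3 fell and 7 were not called. Among all tested rows 18.5% were called higher and 10.1% lower. This list's median was -0.20 against 0.04. The falls were in Il6 (-1.93), Cebpb (-1.65), whose product drives the Arg1 enhancer in mice, and Klf4 (-0.73), and the interleukin-6 receptor gene Il6ra rose by 0.56. Klf4 lost its call without any 1 Control library (limma adjusted p of at most 0.0756). Stat6, the interleukin-4 signal transducer and the most abundant of the list, stood at 148 ± 1.45 TPM in Knockout and 137 ± 4.52 TPM in Control libraries (SD, n = 3 each) and was not called.

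Across the 6 libraries, likeness of pattern was measured as the root mean square difference of log2(TPM + 1) profiles centred on their Control means, for the 3 called members with the largest fold change. Closest to Gch1 were Ticam1 (0.02), Rabac1 (0.03) and Stx5a (0.03). Closest to Srm were H2az1 (0.04), Lair1 (0.04) and Kbtbd8 (0.04). Ass1, lower and noisier, had more distant neighbours, Gm44623 (0.11), Rhox2h (0.12) and Pfkfb3 (0.12), of which Pfkfb3 is among the rows that were not whole reads. The measure is a description of these libraries.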

How the data were processed

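Levels were read from the deposited table of TPM per gene symbol and library, a length-scaled abundance; the unit was read from the values, and 0 columns were left unmapped. The submitters' processing notes list the build GRCm39 and the tool DESeq2 but give neither a role, and aligner, counter and annotation are not given in the sources used here. Reads were recovered as TPM times gene length over a step per library, with union exon lengths of GENCODE M21: 16503 rows were whole at that length (tolerance 0.02 read), 686 at another length (tolerance 0.003) and 28 at none. The value of 1 read at a length of 1 kb was 0.0558 to 0.0637 TPM in Knockout and 0.0623 to 0.0883 TPM in Control libraries. No interval is given for counting error.

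Tests used limma 3.58.1 in R 4.3.3 (trend and robust settings, two-sided) on log2(TPM + 1) for the 13034 rows whose mean reached 1 TPM and Benjamini-Hochberg adjustment over all tested rows at 0.05; the scripts were tested on simulated data. Named genes were all members, up to 4 called genes with the largest change and the most abundant gene of each pathway list; Pts, Spr, Gchfr, Smox, Oaz2, Slc7a6 and the genes under the test minimum were added after their values were seen. The members and lists were chosen with earlier results of these data known. Alternatives were another pseudocount, no filter, 2 scalings, each library left out, a replicate block, limma-voom on recovered reads, removal of the 28 rows and, chosen after the data were seen, removal of Knockout replicate 3 and Control replicate 1 together. Promoters are RefSeq windows of GRCm38.p6, in which Nos2, Asl, Slc7a2, Arg1, Arg2 and Srm were not analysed. A further gene of the nitric oxide and cofactor list is not reported here, and that list's counts leave it out.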

Additional observations from a re-analysis of the deposited data

How the results depend on the processing

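Gch1 and Ass1 were called lower under all 14 alternatives, at log2 fold changes of -0.61 to -0.42 and -0.98 to -0.67. The count of members that rose, 2 as reported, was 1 with no filter, 1 with median-of-ratios scaling, 0 with upper-quartile scaling, 1 by limma-voom and 0 to 3 with 1 library left out; that of members that fell was 2 to 3 with 1 library left out and 2 to 4 over all alternatives. The causes were not tested. Over all rows, 1312 to 2094 genes rose and 666 to 1222 fell with 1 library left out, against 2406 and 1313 as reported, and 2347 rose and 1355 fell without Knockout replicate 3 and Control replicate 1. Of the called genes 64.7% were higher on the deposited scale, 50.8% with median-of-ratios scaling (1814 higher, 1756 lower) and 52.3% with upper-quartile scaling (1872 higher, 1706 lower), and limma-voom gave 2298 higher and 1777 lower.

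The sign of the Nos2 fold change turned without Knockout replicate 3 (0.11), without Control replicate 1 (0.12) and without both (0.25, adjusted p = 0.163), and with 1 library left out it ran from -0.18 to 0.12. The difference in the log2 ratio of Nos2 to Arg1 turned to -0.23 with a pseudocount of 0.1 TPM, -0.02 with either scaling (median-of-ratios -0.017, upper-quartile -0.023), -0.15 without Knockout replicate 3 and Control replicate 1, and ran from -0.21 to 0.16 with 1 library left out. It had no value by limma-voom, where Arg1 was under the filter. That of Nos2 to Arg2 ran from -0.38 to -0.15 with 1 library left out.

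Deviations of same-numbered libraries from their group means correlated at 0.13, -0.08 and 0.03, and those of differently numbered libraries at -0.17 to 0.17. With 3 libraries in each group, these values cannot show whether numbers in the titles pair the libraries. With a replicate block 2331 genes rose and 1380 fell, the members' counts stayed at 2 and 3, the polyamine list had 2 falls (Smox and Oaz2) and the Nos2 inducers had 1 rise. The paired exact test of the log2 ratio of Nos2 to Arg2 gave p = 0.25 (sign flips of 3 pairs, the smallest it can give).

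With no filter, and with either scaling, 1 arginine transporter rose, 1 gene of the urea, ornithine and proline list rose and 1 Nos2 inducer rose. The polyamine list had 1 fall with median-of-ratios scaling and 1 by limma-voom. Without Knockout replicate 3 and Control replicate 1 together, 1 nitric oxide and cofactor gene fell, 1 arginine transporter rose, 2 Arg1 inducers rose and 0 alternative activation genes fell. With 1 library left out, rises were 0 to 1 (nitric oxide and cofactor), 1 to 1 (transport), 0 to 2 (urea, ornithine and proline), 6 to 7 (polyamine), 1 to 3 (Nos2 inducers), 1 to 1 (Arg1 inducers) and 0 to 0 (alternative activation), and falls were 0 to 1, 2 to 3, 1 to 2, 0 to 0, 3 to 5, 2 to 4 and 0 to 1 in the same order. Arg1 rested on 4 to 38 reads a library, the fewest among the members with a row.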

Other observations

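Other markers of alternatively activated macrophages were sparse beside the low Arg1. Of 10 listed genes 6 had a row and 4 were tested, and Chil3, Retnla, Cd163 and Ccl24 had no row. Ccl22, a chemokine gene and the most abundant of the list, fell to 20.6 ± 4.80 TPM in Knockout, against 36.8 ± 7.67 TPM in Control libraries (SD, n = 3 each), and the other 3 were not called. The Ccl22 call was lost under 5 of 14 alternatives, namely without Knockout replicate 2, Knockout replicate 3, Control replicate 1 or Control replicate 3, and without Knockout replicate 3 and Control replicate 1 together (limma adjusted p of at most 0.167). The mannose receptor gene Mrc1 stood at 0.317 to 0.324 TPM in Knockout and at 0.502 to 0.645 TPM in Control libraries, below the level for testing.

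The neuronal and endothelial nitric oxide synthase genes were far below Nos2. Nos1 stood at 0.389 to 0.461 TPM in Knockout and 0.888 to 1.71 TPM in Control libraries, and Nos3 at 0.13 to 0.308 TPM in Knockout and 0.422 to 0.684 TPM in Control libraries. Both sets of values were without overlap and lower in Knockout libraries, as were 19.8% of all tested rows. Nos3 rested on 9 to 32 reads a library, and neither gene reached the level for testing. With no filter on low values, Nos1 was called lower by limma and Nos3 was not.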
